A study of Zea mays with 6 samples.

Results

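The block described here is a stretch of 251 genes that follow each other in the deposited maize (Zea mays) gene tables, out of 45855 genes in all. Each gene has a number there in the gene ID column, and the block runs from 60 numbers before the first to 183 numbers after the last of 4 genes that lie close together. These are Zm00001d028554 (gene number 1210), Zm00001d028555 (1211), Zm00001d028557 (1214) and Zm00001d028561 (1217). The block was selected on the measured change of these 4 genes, whose counts were higher in Fdl1-/- seedlings than in wild type. Every value of that change is therefore given as a description, without a p-value. The question is whether these 4 genes stood alone or lay inside a longer tract of neighbours that changed with them. Polyadenylated RNA was sequenced from seedlings harvested in the coleoptile stage, 3 samples of wild type and 3 of the Fdl1-/- genotype, and the labels used here give neither the lesion of the allele nor the background of the mutant line.

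The MYB protein FDL1 (fused leaves1) is a DNA-binding regulator of transcription, known in maize for its part in cuticle deposition and in keeping the organs of the young seedling apart. Genes that lie side by side in plant genomes can be tandem copies of one ancestor, and such copies can be expressed in the same tissues. When copies are very alike, short reads may match several of them, and the counting program RSEM then divides those reads between the copies. None of the tables used here annotates an ID of the block, so no gene in it is given a name or a function, and genes other than the 4 are called by gene number. The working label places the block on chromosome 1. Coordinates were not used, so distances are in gene numbers.

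The libraries held 26807205 to 36123679 expected counts. Wild-type replicate 1 stood apart, its log-CPM correlating at 0.944 on average with the rest of its group, while this average was 0.956 to 0.977 for each of the other 5 libraries. The locus taken as FDL1, from an ID recalled from published work and paired with the name by no table used here, had 5.18, 3.88 and 5.39 CPM in wild-type replicates 1, 2 and 3 and 4.39, 3.75 and 3.72 CPM in the mutant replicates. CPM is a count scaled to a common library size. The groups overlapped at this locus, so its level does not check the genotype labels. With no annotated IDs, the tissue label was not checked against marker genes.

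Of the 251 genes of the block, 152 have 1 annotated transcript and 99 have 2 or more, up to 38. Their IDs form a nearly regular series, in which 240 begin Zm00001d028. Of the rest, 9 begin Zm00001d022, as the ID of the FDL1 locus does, and 2 begin ENSRNA. Gene 1212, inside the cluster of 4, is one of those 9. Counts were high enough to test 165 genes, at mean levels from 0.331 to 883 CPM with a median of 18.3 CPM. Of the 86 genes not tested, 37 had no count in any library and 49 had a mean of at most 13.7 counts per library. A gene can pass this filter through 1 group alone, as gene 1217 did.

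The cluster of 4 spans 8 gene numbers, and its members had higher levels in every mutant library than in any wild-type library. They were selected for that rise, and 10.7% of all tested genes were separate in this direction. In RNA from whole seedlings, more cells that express a gene and more RNA per cell cannot be told apart. Gene 1211 (Zm00001d028555), a gene of 1 transcript of 477 nt, had 37.3, 34.2 and 40.2 CPM in wild-type replicates 1, 2 and 3. In the mutant replicates it had 289, 264 and 401 CPM. The lowest mutant library was 6.56 times the highest wild-type library, and the log2 fold change was 3.09 (SE 0.19).

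Gene 1214 (Zm00001d028557) is also annotated with 1 transcript of 477 nt and behaved much like gene 1211 at a lower level. It had 17.2, 15.04 and 10.6 CPM in the wild-type replicates and 100.05, 94.1 and 137 CPM in the mutant replicates. Its log2 fold change was 2.95 (SE 0.23), and the groups did not overlap.

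Gene 1217 (Zm00001d028561), with 1 transcript of 480 nt, was near the limit of detection in wild type, with 1, 1 and 3 counts. The mutant replicates had 968, 1197 and 2584 counts, which is 33.7, 33.5 and 75.7 CPM. Over all libraries of a group the level was 913 times higher in the mutant, with a 95% exact binomial interval of 391 to 2814 that covers counting error only. The mutant libraries of this gene differed among themselves by 2.26 times, more than those of the other 3 genes.

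Gene 1210 (Zm00001d028554) differs from the other 3 in having 4 annotated transcripts and a mean length near 2453 nt in wild type. Its levels were 10.9, 9.92 and 9.78 CPM in the wild-type replicates and 37.8, 36.3 and 48.2 CPM in the mutant replicates. The log2 fold change was 1.9995 (SE 0.15), the smallest of the 4.

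**Figure D1:**
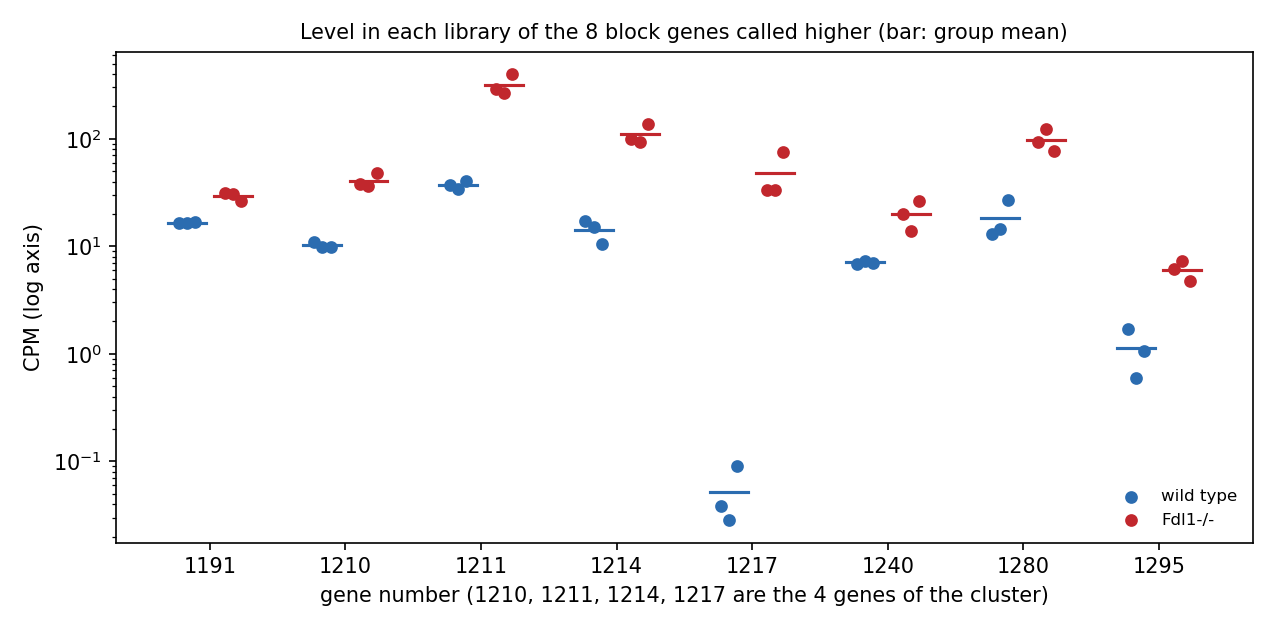
CPM in each library, on a log axis, of the 8 genes of the block called higher in Fdl1-/-. Points are libraries, in replicate order from left to right, and bars are group means. Gene 1217 goes from 0.028 to 0.090 CPM in wild type to 33.5 to 75.7 CPM in the mutant, and for all 8 genes the groups do not overlap.

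Per unit of length, 3 of the 4 genes were among the 11 most abundant of the block in the mutant, and gene 1210 was not. TPM, which scales counts to transcript length and library total, is the level used to compare genes. In wild type gene 1211 was at 116 ± 13.6 TPM (SD, n = 3) and ranked 12 of the 251 genes. In the mutant it was at 1014.5 ± 244 TPM (SD, n = 3) and ranked 2, behind gene 1345. Gene 1214 moved from rank 40 at 44.0 ± 8.19 TPM to rank 5 at 352 ± 77.8 TPM (SD, n = 3). Gene 1217 moved from rank 180 at 0.163 ± 0.110 TPM to rank 11 at 151 ± 78.7 TPM (SD, n = 3). Gene 1210 moved from rank 120 at 5.63 ± 0.0781 TPM to rank 66 at 23.9 ± 4.04 TPM (SD, n = 3), the least abundant of the 4 in the mutant. Together the 4 genes took 0.00612% ± 0.000315 of all wild-type counts and 0.0521% ± 0.0135 of all mutant counts (SD, n = 3). Within the block their share of counts went from 0.786% ± 0.0441 to 5.85% ± 1.499 (SD, n = 3).

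The 3 short genes did not keep the same proportions in both genotypes. The TPM of gene 1211 was 2.17, 2.27 and 3.79 times that of gene 1214 in wild-type replicates 1, 2 and 3, and 2.89, 2.80 and 2.93 times in the mutant replicates, which lies inside the wild-type range. Gene 1217 made up 0.0582% to 0.174% of the summed TPM of the 3 genes in wild type and 7.92%, 8.51% and 12.3% in mutant replicates 1, 2 and 3. The counts of genes 1210, 1211 and 1214 were fractional in all 6 libraries, and those of gene 1217 in the 3 mutant libraries, which is how RSEM reports reads it divides between genes. Counts were fractional in all 6 libraries for 97 of the 165 tested genes of the block. How much of each level comes from reads shared with a similar gene was not tested, so the split between the members is uncertain. Another single-transcript gene of 477 nt lies in the block, gene 1236, and it had a mean of 0.117 CPM. Among all 45855 genes 107 have a single transcript of 477 to 480 nt, and 25 of them were tested. Besides the 3 genes, 1 of the other 22 was called higher and 0 were called lower, where 1.68% of all tested genes were called higher. That range of lengths was taken from the 3 genes themselves, and no sequence of these genes was compared.

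The members of the cluster also shared their order among the mutant libraries, which the choice of the block did not use. Mutant replicate 3 was highest, replicate 1 next and replicate 2 lowest for 4 of the 4 genes. Of 26098 tested genes 19.7% had that order, and of the other 161 tested genes of the block 25.5% did. The order was read from the 4 genes themselves, so these shares are a description and not a test. Mutant counts of the 4 genes were fractional, and whether reads divided between genes gave them a common order was not tested. The lead of replicate 3 over replicate 2 was 1.33 times for gene 1210, 1.52 times for gene 1211, 1.46 times for gene 1214 and 2.26 times for gene 1217. The wild-type libraries had no order in common, with replicate 1 highest for genes 1210 and 1214 and replicate 3 highest for genes 1211 and 1217. Of the 9 tested genes from 1210 to 1221, 8 had the mutant order of the cluster, the exception being gene 1212. This stretch was delimited after its values were seen, and it includes genes 1215, 1216, 1218 and 1221, which were not called.

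The genes lying between the members of the cluster did not share their size of change. Gene 1215, with 5 transcripts, had 13.4, 15.7 and 17.2 CPM in the wild-type replicates and 17.2, 15.5 and 19.99 CPM in the mutant replicates. The groups overlapped, with a log2 fold change of 0.18 (SE 0.16). Gene 1216, an abundant gene with 28 transcripts, had 100.2, 122 and 122 CPM in wild type and 116, 100.01 and 119 CPM in the mutant. Its log2 fold change was -0.041 (SE 0.13). Gene 1212 was at 0.477 ± 0.159 CPM in wild-type libraries and 0.559 ± 0.210 CPM in mutant libraries (SD, n = 3). Gene 1213 was not tested, at 0.206 ± 0.0529 and 0.161 ± 0.0308 CPM (SD, n = 3). Genes 1215 and 1216, both near level, thus lay between higher genes of the cluster. Counts of genes 1212 and 1213 were too low to place them as level.

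**Figure D2:**
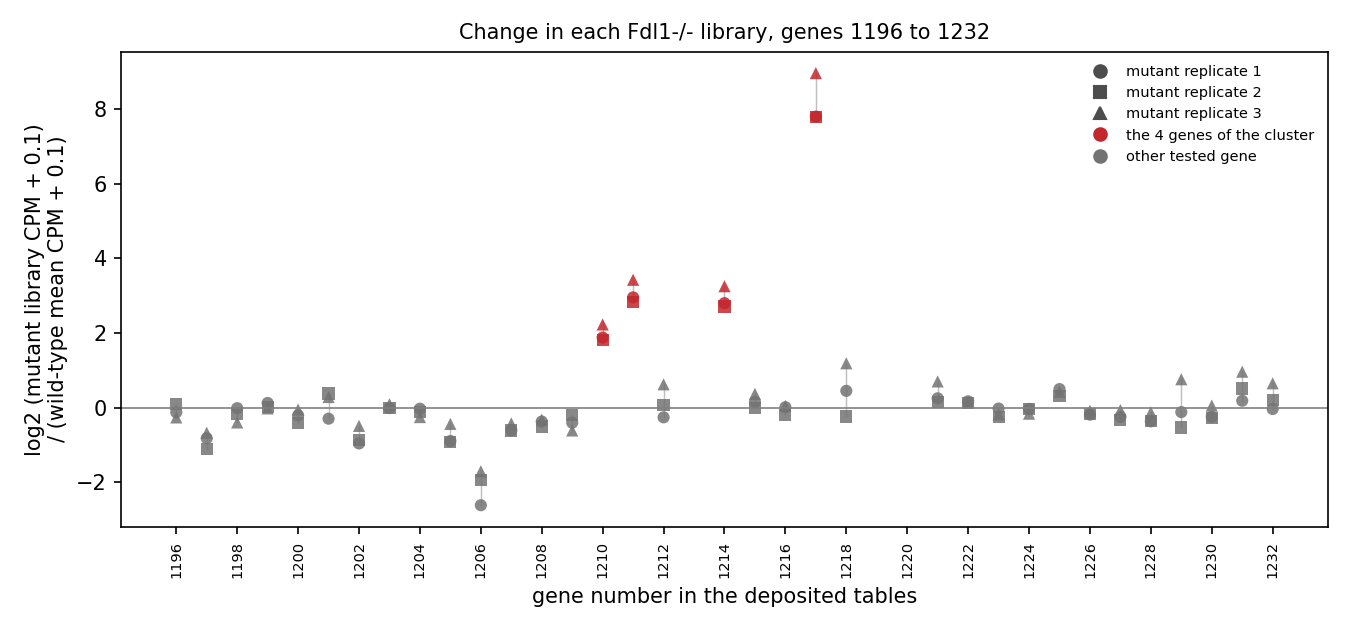
Log2 of each mutant library over the wild-type mean, with 0.1 CPM added to both, for tested genes 1196 to 1232 in gene order. Symbols are the 3 mutant libraries, and the 4 genes of the cluster are in red. Genes 1215 and 1216 lie near 0 between members of the cluster that lie above 1.8.

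Just before the cluster lay a short stretch with lower levels in the mutant. Genes 1206, 1207 and 1208 follow each other, and for each of them all mutant libraries were below all wild-type libraries. Among all tested genes 11.2% lay below in this way, and the stretch was delimited by its values. Gene 1206 had 4.87, 2.61 and 2.35 CPM in the wild-type replicates and 0.453, 0.784 and 0.938 CPM in the mutant replicates. It was not called, at a log2 fold change of -2.16 (SE 0.44), though it was called lower by DESeq2, without a low-count filter and with effective lengths as offsets. Gene 1207 had 22.2 ± 3.08 and 15.2 ± 1.19 CPM, and gene 1208 had 147 ± 33.6 and 112 ± 7.26 CPM, in wild type and mutant (SD, n = 3). Neither was called in edgeR, and DESeq2 called gene 1207 lower. The log2 fold change of gene 1208 was -0.40, and -0.19 without wild-type replicate 3. Counts of these 3 genes were whole in all 6 libraries, unlike those of the cluster. Genes 1204, 1205 and 1209, also next to the cluster, had overlapping groups and log2 fold changes of -0.13, -0.77 and -0.44. Without wild-type replicate 1 that of gene 1205 was -0.13.

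Just after the cluster the levels overlapped between the groups. Gene 1218, the next number after 1217, had 23.6, 11.5 and 8.64 CPM in the wild-type replicates and 19.9, 12.4 and 33.4 CPM in the mutant replicates. Its spread within each group was wider than the difference between their means. Genes 1221, 1222, 1223 and 1224 had log2 fold changes of 0.41, 0.15, -0.15 and -0.078, all with overlapping groups. Gene 1225 did not overlap, at 50.9 ± 4.71 CPM in wild-type libraries and 67.8 ± 4.53 CPM in mutant libraries (SD, n = 3). It was not called in edgeR and was called higher by DESeq2.

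The genes called nearest to the cluster in edgeR lay 19 gene numbers before and 23 after it. A gene is called here when edgeR's quasi-likelihood test, fitted over all genes, gives a Benjamini-Hochberg adjusted p under 0.05. On the side of lower gene numbers the nearest called gene was 1191, with 18 tested genes between it and the cluster. Their log2 fold changes ran from -2.16 to 0.20, with 14 below 0 and 4 above. On the other side it was gene 1240, again with 18 tested genes between, at log2 fold changes from -0.66 to 0.71, 9 on each side of 0. Of these 36 genes, 35 changed by less than 2-fold, gene 1206 being the exception. DESeq2 called 5 of the 36, namely 1202, 1206, 1207 and 1238 lower and 1225 higher, where it called 7.65% of all tested genes. The nearest DESeq2 call thus lay 3 gene numbers before the cluster. Runs of neighbouring tested genes that did not overlap between the groups and moved in one direction held at most 3 genes. There were 2 such runs, genes 1206 to 1208 and genes 1343 to 1345, and the longest run that held a member of the cluster was genes 1210 and 1211.

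Over the whole block 8 of 165 tested genes were called higher and 0 were called lower. Among all tested genes 2.68% were called, 1.68% higher and 0.996% lower. The cluster supplied 4 of the 8, and it was the reason for choosing the block, so the share is not read further. DESeq2 called 14 higher and 6 lower in the block, where it called 7.65% of all tested genes. For limma-voom it was 7 higher and 0 lower, where 2.755% of all tested genes were called. These counts include the cluster, and without it DESeq2 called 16 genes of the block and limma-voom 3. In edgeR 161 genes of the block outside the cluster were tested. Of these, 19 had an unadjusted p under 0.05 and a higher level, and 10 a lower one. Among all 26098 tested genes these numbers were 2020 and 2107. The other 4 called genes were spread out, at least 15 gene numbers apart, and each is described by its own values.

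Gene 1280, with 6 transcripts, had the highest mutant level among these 4. It had 13.1, 14.6 and 26.7 CPM in the wild-type replicates and 93.2, 123 and 76.7 CPM in the mutant replicates. Its log2 fold change was 2.43 (SE 0.31), within the range of the cluster, but its highest mutant library was replicate 2.

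Gene 1295, with 1 transcript of 1008 nt, had 1.71, 0.595 and 1.05 CPM in the wild-type replicates and 6.13, 7.33 and 4.72 CPM in the mutant replicates. The log2 fold change was 2.44 (SE 0.42), and all its counts were whole. Gene 1240, with 2 transcripts, had 6.89, 7.37 and 6.95 CPM in the wild-type replicates and 19.8, 13.8 and 26.2 CPM in the mutant replicates. Its log2 fold change was 1.496 (SE 0.24), and it had the same order of mutant libraries as the cluster.

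Gene 1191, with 1 transcript of 845 nt, changed least among the called genes. It had 16.4, 16.3 and 16.9 CPM in the wild-type replicates and 31.0, 30.7 and 26.4 CPM in the mutant replicates. The log2 fold change was 0.83 (SE 0.11), on a very narrow spread in wild type. Of these other 4 genes 0 were called without wild-type replicate 2, without mutant replicate 1 or with a replicate block. Their fold changes stayed of similar size, with log2 values of 0.82, 1.53, 2.29 and 2.13 for genes 1191, 1240, 1280 and 1295 without wild-type replicate 2.

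**Figure D3:**
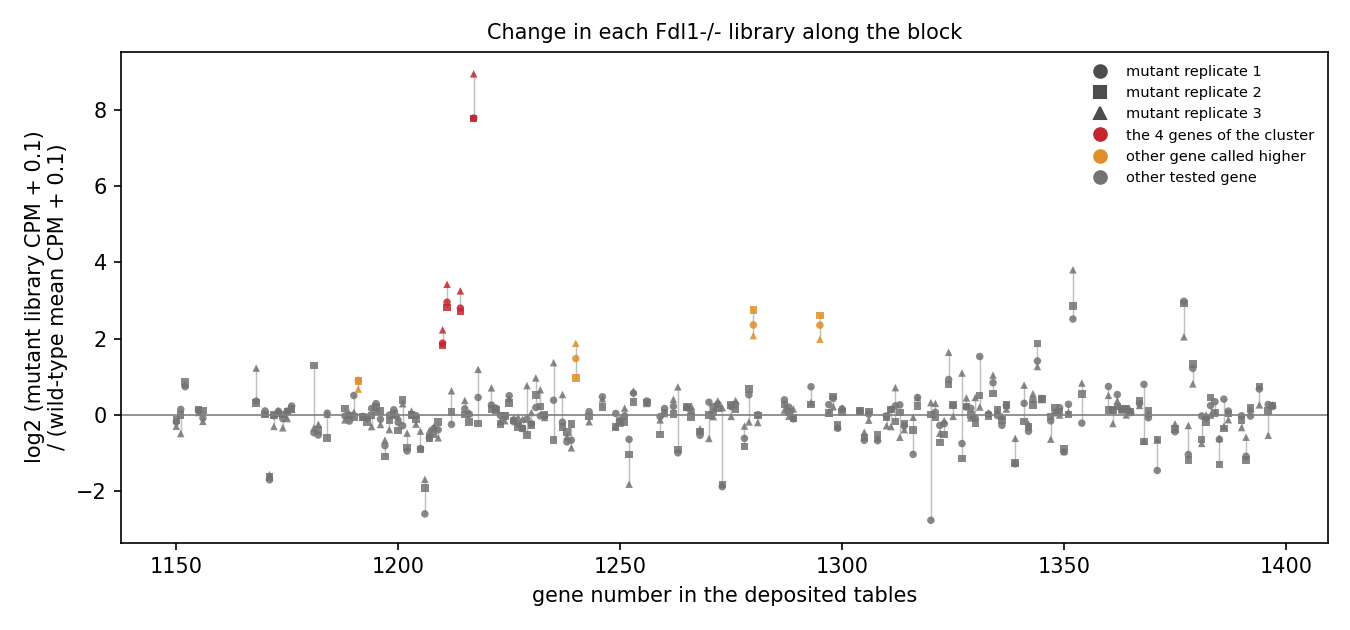
Log2 of each mutant library over the wild-type mean, with 0.1 CPM added to both, for the 165 tested genes of the block in gene order. Red marks the cluster of 4, orange the other 4 called genes and grey the rest. Gene 1206, just before the cluster, lies between -2.61 and -1.70.

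In the rest of the block several genes had separate groups without being called. In all, 32 tested genes had every mutant library above every wild-type library and 16 had every one below. Among all tested genes 10.7% lay above and 11.2% below. Without the cluster 28 of 161 lay above. Gene 1352 showed the largest change among the 40 separate genes that were not called. It had 0.685, 0.453 and 2.62 CPM in the wild-type replicates and 7.62, 9.68 and 18.8 CPM in the mutant replicates, a log2 fold change of 3.26 (SE 0.70). Gene 1377 had 0, 0.142 and 1.14 CPM in wild type and 4.07, 3.92 and 2.08 CPM in the mutant, a log2 fold change of 2.93 (SE 1.07). Both were called once wild-type replicate 3, their highest wild-type library, was left out, at log2 fold changes of 4.42 and 5.36, and gene 1352 was also called by DESeq2 and without a low-count filter. Genes 1324 and 1379 were also higher, by 1.21 (SE 0.42) and 1.23 (SE 0.40) on the log2 scale.

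Lower levels without a call in edgeR were found in genes 1197, 1252, 1339 and 1391, of which DESeq2 called 1339 and 1391. Gene 1339 had 61.3, 38.2 and 29.3 CPM in the wild-type replicates and 17.4, 17.8 and 27.8 CPM in the mutant replicates, a log2 fold change of -1.03 (SE 0.31). Gene 1391 had 30.8, 21.0 and 17.3 CPM in wild type and 10.7, 10.05 and 15.2 CPM in the mutant, a log2 fold change of -0.94 (SE 0.26). For both, wild-type replicate 1, the library that stood apart, was the highest. Gene 1252 had a log2 fold change of -1.15 (SE 0.42). That of gene 1197 was -0.87 (SE 0.43), and -0.26 without wild-type replicate 1.

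The 5 genes of the block with the highest mean CPM were not called. Gene 1345, first of them and also first by TPM, had 829, 744 and 701 CPM in the wild-type replicates and 1017, 1012 and 998 CPM in the mutant replicates. Its log2 fold change was 0.41 (SE 0.12), and the groups did not overlap. DESeq2 called it. Genes 1196, 1275, 1297 and 1383 had log2 fold changes of -0.090, 0.14, 0.12 and 0.24, all with overlapping groups.

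The median log2 fold change of the 165 tested genes was 0.041, and it was 0.027 without the cluster, against -0.033 over all tested genes. Taken library by library, the block's median log2 change from the wild-type mean, with 0.1 CPM added to both, was 0.061, 0.00036 and 0.026 in mutant replicates 1, 2 and 3, where all tested genes had -0.031, -0.030 and -0.057. In every mutant library 9 genes of the block were at least 2-fold higher and 2 at least 2-fold lower, with 2.69% and 1.94% of all tested genes doing so. Without the cluster 5 of 161 genes were at least 2-fold higher in every mutant library. In bins of 25 gene numbers the median ran from -0.053 at genes 1300 to 1324 to 0.20 at genes 1275 to 1299. The bin of the cluster, genes 1200 to 1224, had a median of -0.0090 with 11 genes on each side of 0. Genes 1325 to 1349 leaned to higher levels, with 16 of 20 above 0 and a median of 0.094, and so did genes 1350 to 1374, with 11 of 14 above 0 and a median of 0.11. The longest runs of tested genes with a fold change above 0 held 10 genes each, at genes 1324 to 1335 and 1351 to 1367. Of all tested genes 45.2% had a fold change above 0. The share of all counts taken by the block without the cluster was 0.773% ± 0.00619 in wild-type libraries and 0.838% ± 0.0143 in mutant libraries (SD, n = 3), and the groups did not overlap. Such a share is weighted to abundant genes, and gene 1345, the most abundant, was higher in every mutant library. How much of the difference came from it was not tested.

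**Figure D4:**
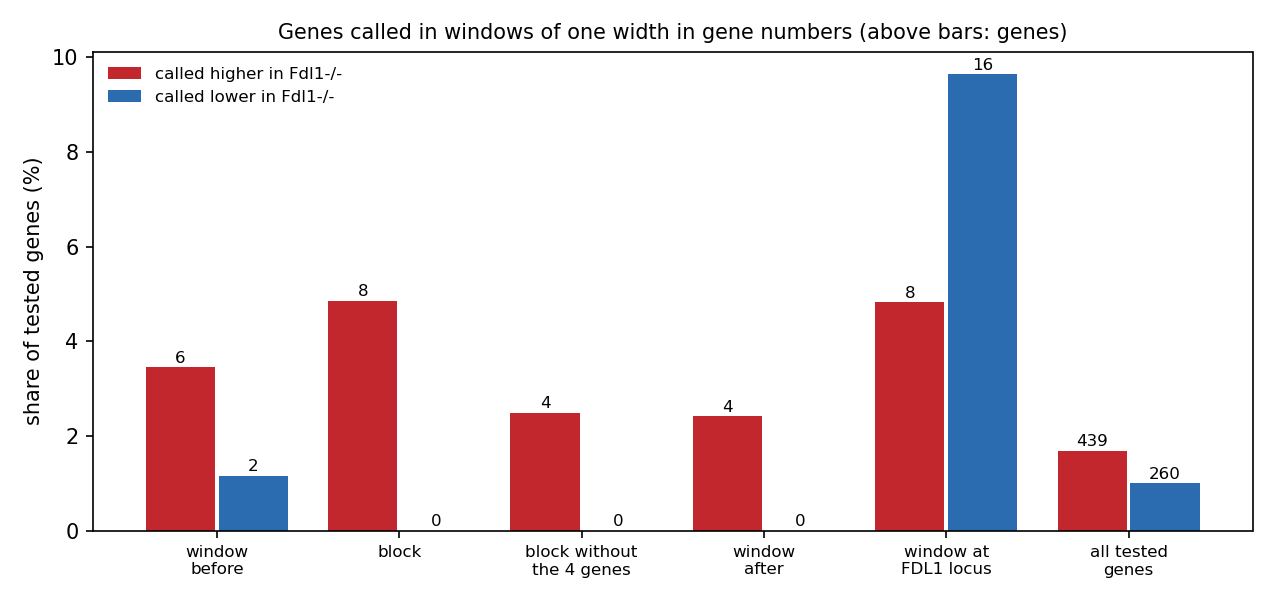
Share of tested genes called higher (red) and lower (blue) in Fdl1-/- in windows of 251 gene numbers, with the number of genes above each bar. The block has 8 higher and 0 lower, and 4 and 0 without the cluster. The window at the FDL1 locus has 8 higher and 16 lower.

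Stretches of the same width on each side of the block also held called genes, against 2.68% of all tested genes. The stretch before it had 6 called higher and 2 lower of 174 tested, and the stretch after it had 4 higher and 0 lower of 166 tested. Their median log2 fold changes were -0.018 and 0.024. The first gene inside the block had a log2 fold change of -0.21, and the gene just outside it one of 0.014. The last gene inside and the one after it were not tested, at mean levels of at most 0.288 CPM in either group. The window of the same width centred on the FDL1 locus, 29441 gene numbers past gene 1217, had 8 called higher and 16 lower of 166 tested, which is 14.5%. Separate groups were seen in 43.4% of its tested genes, against 29.1% in the block and 21.9% of all tested genes. Without the cluster the share in the block was 27.3%. The differences between these windows were not tested.

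No gene of the block was called for a change in estimated transcript length. This length is the mean over the annotated transcripts of a gene, weighted by their estimated shares, so a shift in it need not mean that a transcript was itself shorter. It could be compared for 87 genes of the block with 2 or more transcripts and enough counts. In limma 0 of the 87 were called, with 3 at an unadjusted p under 0.05, where 0.00815% of 12269 genes were called and 5.27% had an unadjusted p under 0.05. The groups did not overlap for 9 of the 87 genes, 4 longer and 5 shorter, where 10.4% of all genes did not. Within 25 gene numbers of the cluster, leaving it out, they did not overlap for 5 of 23 genes, 2 longer and 3 shorter. In the bin of genes 1225 to 1249, which had the largest share of any bin, this held for 3 of 8 genes, all among those 5. It held for 2 of 11 genes in the bin of the cluster, gene 1210 included, and for 0 of 6 at genes 1250 to 1274. Of the cluster only gene 1210 has several transcripts. Its length was 2478, 2435 and 2445 nt in the wild-type replicates and 2393, 2369 and 2376 nt in the mutant replicates, so every mutant library was shorter, by 73.2 nt on average. Gene 1202, 8 numbers before it, was longer in every mutant library, by 51.7 nt on average, and gene 1287 by 7.01 nt. Gene 1238 was shorter by 105 nt on average, with wild-type replicates at 2023, 1917 and 1909 nt and mutant replicates at 1826, 1810 and 1896 nt. Gene 1351 was longer by 53.5 nt on average, with overlapping groups. Of the other called genes, 1240 was longer by 12.5 nt, gene 1280 overlapped, and 1191 and 1295 have 1 transcript.

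**Figure D5:**
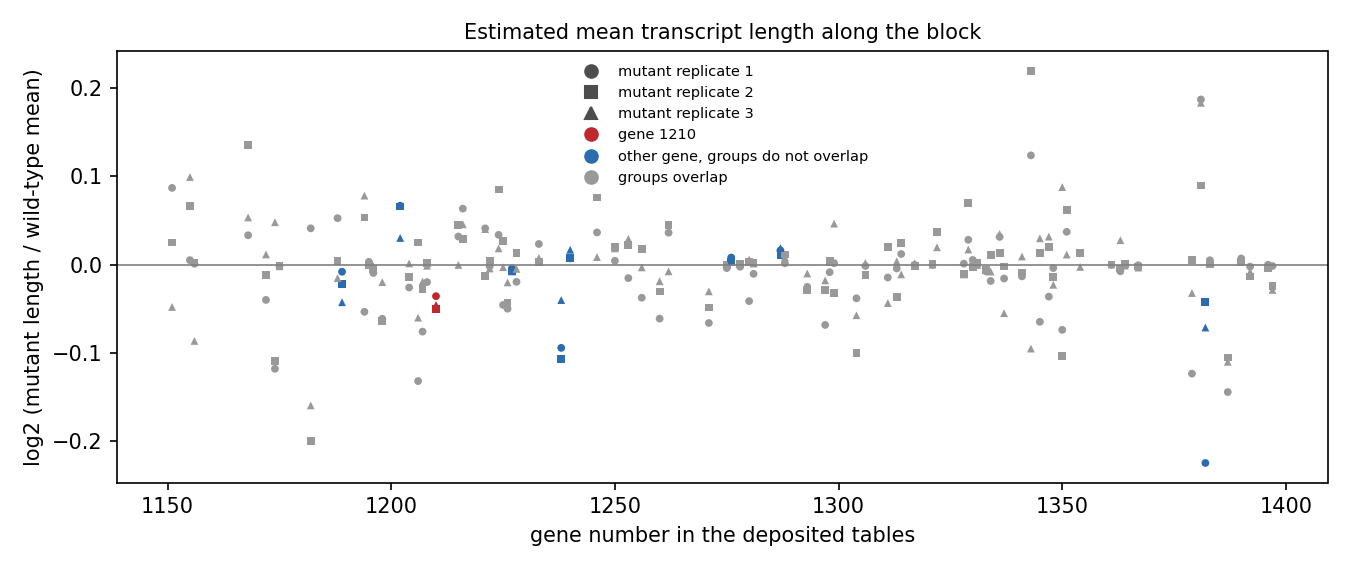
Log2 of the estimated mean transcript length in each mutant library over the wild-type mean, for the 87 genes of the block that could be compared, in gene order. Gene 1210 is in red and other genes whose groups do not overlap are in blue. Of the 87 genes 9 are coloured, 4 longer and 5 shorter in the mutant.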

How the data were processed

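RNA of 3 wild-type and 3 Fdl1-/- samples was sequenced after poly(A) selection, and the series gives 3 biological replicates per group. Per the submitters' processing notes, Bowtie2, RSEM, DESeq2 and limma and the build B73 RefGen_v4 were used, with versions and roles not given in the sources used here. Whether counting used strand is not given either. Per the file headers, the authors deposited RSEM gene tables. The deposited expected counts divide shared reads between genes, the deposited TPM are scaled to length and library total, and the deposited lengths are share-weighted means.

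Expected counts were rounded and fitted with edgeR 4.0.16 in R 4.3.3 (filterByExpr, minimum count 10 and total 15; TMM; quasi-likelihood test, Benjamini-Hochberg over all tested genes, 0.05). Lengths were compared with limma 3.58.1 on the log2 scale, over genes with 2 or more transcripts, at least 10 counts in every library and a length that varied. Both fits were tested on simulated data with planted changes. The planted length shift was larger than that of gene 1210, and whether shifts of that size could be called was not tested. Correlations used log-CPM with a prior count of 2. A count was called whole within 0.005. A floor of 3 counts is 0.0840 to 0.114 CPM per library. Each standard error is the log2 fold change over the root of its F.

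The block holds gene numbers 1150 to 1400. The block, the comparison windows and the rule for naming genes were chosen with earlier results of these data known. The rule takes the 4 genes, every called gene, the 6 nearest tested genes on each side and those between, up to 8 further separate genes of at least 1 CPM by fold, the 5 with the smallest p for length and the 5 most abundant. Genes 1236, 1343 and the edge genes fall outside it and were named after their values were seen. Alternatives were DESeq2 1.42.0, limma-voom, other scalings and filters, leaving out each library, a replicate block, and offsets from effective lengths. The deposited FPKM were not used. No sequence of these genes was used here.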

Additional observations from a re-analysis of the deposited data

How the results depend on the processing

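The 4 genes of the cluster were called in all 13 alternatives to the edgeR fit, but this direction was fixed by their choice and tells nothing of stability. DESeq2 called 1997 genes in all, 14 higher and 6 lower in the block. Without a low-count filter, or with effective lengths as offsets, 1 gene of the block, gene 1206, was called lower. Deviations of same-numbered samples correlated at -0.22, 0.13 and -0.18, and those of unlike numbers at -0.18 to 0.27. With 3 samples per group these values cannot decide whether the numbers pair the samples. A replicate block gave 122 genes in all and 4 higher in the block. Leaving out 1 library gave 128 to 837 genes in all and 4 to 8 higher in the block, with 4 without wild-type replicate 2 or mutant replicate 1 and 5 without mutant replicate 2. The total was 149 without wild-type replicate 2, and 128, 184 and 193 when mutant replicate 1, 2 or 3 was dropped. The 0 lower genes and the 0 length calls held under each left-out library, and the length count also under a replicate block and a filter of 50 mean counts, and the median change of the block ran from 0.031 to 0.062. Without wild-type replicate 1, 7 block genes were called. Genes 1212, 1216 and 1351 changed sign when 1 library was left out, running from -0.093 to 0.51, from -0.13 to 0.030 and from -0.016 to 0.23. Of 518 alternative values of single named genes, 478 kept their side of the threshold, 21 lost and 14 gained a call and 5 changed sign. The causes were not tested. Of the 86 untested genes, 44 could be fitted without the low-count filter, and 0 of these were called.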
